A study of Homo sapiens with 18 samples.

Results

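Aminoacyl-tRNA synthetases are the enzymes that join each amino acid to its transfer RNA, and 36 of their genes were followed here. The genes were chosen by name and found by their NCBI Gene ID, and all 36 were among the 21662 genes listed over the deposited files and had enough counts to be tested. Of the 36, 18 encode enzymes of the cytosol, 16 encode enzymes of the mitochondrion (the symbols that end in 2), and the remaining pair, GARS1 and KARS1, encode enzymes that serve both compartments. RNA sequencing covered 18 libraries. Cells of SNT-8, SNK-10 and SNT-16, established lines of NK/T cell lymphoma, received DMSO (the vehicle) or icaritin, a flavonoid from Epimedium, and were taken after 12 h. Each of the 6 groups held 3 libraries. The dose of icaritin was not given in the sources used here. Whether replicates were separate cultures is not stated, so each p-value reflects no more than the spread between these libraries, which may be technical. The title of the series concerns PLK1 and the DNA damage response.

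Human cells keep separate sets of synthetases for cytosolic and for mitochondrial translation, all encoded in the nucleus. Several cytosolic enzymes are held together with the scaffold proteins AIMP1, AIMP2 and EEF1E1 in the multisynthetase complex. When tRNA runs uncharged or the endoplasmic reticulum is stressed, kinases phosphorylate the initiation factor eIF2, the transcription factor ATF4 is translated, and ATF4 together with C/EBP partners binds composite elements in its target genes. A part of the cytosolic synthetase genes belongs to the known ATF4 targets, while the mitochondrial enzymes are in general not counted among them.

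The composite C/EBP-ATF element was searched for because many cytosolic genes rose together after icaritin. The letters searched were TGATGCAA, on both strands, in the RefSeq promoters of build GRCh38.p14, each 300 bases long from 250 before to 50 after a gene's start. The table held 30 of the 36 genes; TARS3, VARS1, YARS1, LARS1, AARS2 and VARS2 were not matched. The 8 letters stood in 304 of 35116 promoters (0.866%), and counted by gene in 295 of 27305 (1.08%). Among the 30 matched genes, they stood in 6 of the 13 whose RNA rose on the mean of the 3 lines. They stood in 0 of the 13 that fell and in 0 of the 4 that passed in neither direction. All 6 are cytosolic genes. The mitochondrial genes that rose, HARS2 and WARS2, held none, and neither did the matched cytosolic genes that fell. Most genes that rose are cytosolic, so these counts do not fully separate direction from compartment. The 6 are shown with 30 bases each, read 5′ to 3′ on the gene's strand, with the 8 letters in capitals.
AARS1, chr16:70289675-70289704, minus strand: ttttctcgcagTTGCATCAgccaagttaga
CARS1, chr11:3057407-3057436, minus strand: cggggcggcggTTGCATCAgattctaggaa
IARS1, chr9:92293692-92293721, minus strand: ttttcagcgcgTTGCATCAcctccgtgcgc
MARS1, chr12:57488053-57488082, plus strand: gccggttccggTTGCATCAgcgagggattc
TARS1, chr5:33440956-33440985, plus strand: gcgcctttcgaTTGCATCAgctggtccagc
NARS1, chr18:57621804-57621833, minus strand: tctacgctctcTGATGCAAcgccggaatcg
In 5 of the 6 genes the letters began within 14 bases of the annotated start, and in AARS1 they began 187 bases before it. TTGCATCA is the same element read on the other strand. With any base allowed at position 6 (TGATGNAA, both strands, which includes the matches above), 3.62% of all promoters and 4.46% of all genes matched. The matches among the genes studied grew to 8 by GARS1, which rose, and YARS2, which fell. The E-box letters CACGTG were also searched for in these promoters. They stood in 4 of the 30 matched genes: 1 of the 13 that rose, 1 of the 13 that fell and 2 of the other 4. Counted over all genes the share was 8.77%. A match is a run of letters in this window, and binding was not measured.

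The expected counts of a library, which are estimated fragments per gene, summed to between 9526431 and 10100453. The counts of a synthetase gene in a library ran from 63 for PARS2 to 15552 for WARS1. FPKM is the authors' level scaled to transcript length and library size. Markers of NK and T cells were present, with all 9 listed genes at 1 FPKM or more in each group; the 6 B and plasma cell markers summed to at most 2.11 FPKM in any library and the 6 myeloid markers to between 17.75 and 25.75 FPKM. The mitochondrial 16S rRNA gene RNR2 took at most 1.55% of a library with DMSO, and with icaritin 2.12 to 2.78% in SNT-8, 4.59 to 5.12% in SNK-10 and 1.65 to 1.77% in SNT-16; leaving mitochondrial rRNA out moved no count of synthetase genes by over 1.5 times. All levels are relative to the rest of the library, and in bulk RNA fewer cells of a kind and less RNA per cell cannot be told apart.

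On the mean of the 3 lines, 13 of the 20 genes with a cytosolic role rose after icaritin and 7 fell, while of the 16 mitochondrial genes 2 rose, 10 fell and 4 did not pass. Across all 14396 genes tested, 61.7% passed in this comparison, 31.7% upwards and 30% downwards (edgeR quasi-likelihood test, adjusted p under the threshold of 0.05). The median log2 fold change was 0.34 over the 20 and -0.28 over the 16, with a median of 0.03 over all genes tested. The median size of the change, whatever its sign, was 0.34 over the 36 and 0.25 over all genes. In SNT-8, 13 of the 20 rose and 7 fell, and 1 of the 16 mitochondrial genes rose and 10 fell, where 49.1% of all genes passed, 24.0% upwards and 25.0% downwards. In SNK-10, 13 rose and 7 fell among the 20, and 2 rose and 6 fell among the 16, against 48.4% of all genes, 24.4% upwards and 24.0% downwards. In SNT-16, 12 rose and 6 fell among the 20, and 2 rose and 10 fell among the 16, against 42.0% of all genes, 21.2% upwards and 20.8% downwards. Those 2 mitochondrial genes became 1 without any of SNT-16 DMSO replicates 1 and 2 and icaritin replicates 1, 2 and 3. No gene of the 36 passed upwards in a line and downwards in another.

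**Figure D1:**
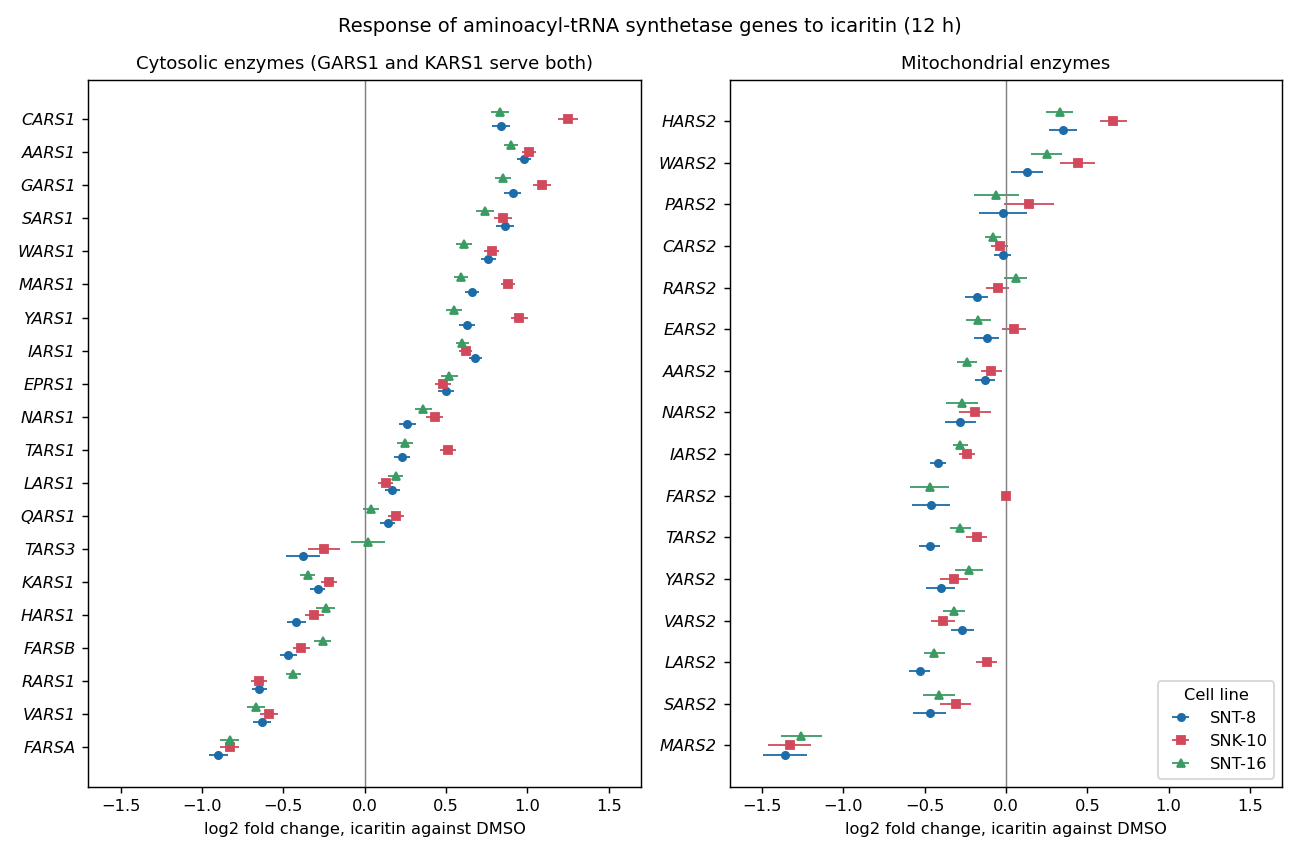
Log2 fold change of each synthetase gene, icaritin against DMSO, in SNT-8 (circles), SNK-10 (squares) and SNT-16 (triangles), with bars for the standard error of the fit; FARS2 in SNK-10 lies at 0 and has no bar. The cytosolic genes split into a rising and a falling set, with QARS1 and TARS3 not passing in SNT-16, while MARS2, near -1.3, lies below every other gene.

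Within single lines, 12 of the 20 cytosolic genes rose in each of the 3 lines and 6 fell in each, while 1 mitochondrial gene, HARS2, rose in each and 6 fell in each. Over all genes tested, 13.0% rose in each line and 14.3% fell in each.

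The cytosolic genes with the largest rises were CARS1, AARS1 and GARS1, the enzymes for cysteine, alanine and glycine. AARS1 RNA lay at 67.4, 68.1 and 68.8 FPKM in the DMSO libraries of SNT-8 and at 142, 133 and 141 FPKM with icaritin. In SNK-10 it went from 65.9, 67.6 and 66.9 to 134, 131 and 130 FPKM, and in SNT-16 from 73.0, 69.4 and 71.4 to 138, 133 and 134 FPKM. All 9 icaritin libraries lay above all 9 DMSO libraries, and the levels of the 3 lines lay close together. The log2 fold change from the counts was 0.98 in SNT-8 (SE 0.0412, edgeR adjusted p = 1.28e-21), 1.01 in SNK-10 (SE 0.0414, adjusted p = 4.87e-22) and 0.90 in SNT-16 (SE 0.0412, adjusted p = 2.79e-20).

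GARS1, whose enzyme charges glycine tRNA in both compartments, went from 151 ± 9.03 to 293 ± 24.3 FPKM in SNT-8, from 111 ± 2.71 to 231 ± 4.63 FPKM in SNK-10 and from 141 ± 3.02 to 259 ± 1.01 FPKM in SNT-16 (SD, n = 3 each). The icaritin libraries of SNT-8 were 282, 321 and 277 FPKM, and every icaritin library lay above every DMSO library of its own and the other lines. The log2 fold changes were 0.91, 1.09 and 0.85, and the mean was 0.95 (SE 0.0299, edgeR adjusted p = 2.74e-26). CARS1 went from 43.6 ± 1.16 to 81.1 ± 3.07 FPKM in SNT-8, from 25.5 ± 2.53 to 59.5 ± 2.55 FPKM in SNK-10 and from 40.4 ± 0.926 to 73.0 ± 2.40 FPKM in SNT-16 (SD, n = 3 each). The log2 fold change of CARS1 was 1.25 in SNK-10, against 0.84 and 0.83 in SNT-8 and SNT-16.

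SARS1, the serine enzyme, followed with a mean log2 fold change of 0.82 (SE 0.0324), and in SNT-8 its icaritin libraries were 232, 280 and 239 FPKM against 135, 134 and 133 FPKM with DMSO. WARS1, the tryptophan enzyme and also a gene of the interferon-gamma response, had the highest level per length of the 36 in each group. It went from 279 ± 19.7 to 483 ± 8.64 FPKM in SNT-8, from 180 ± 7.40 to 300 ± 8.84 FPKM in SNK-10 and from 373 ± 6.48 to 576 ± 6.82 FPKM in SNT-16 (SD, n = 3 each), with a mean log2 fold change of 0.72 (SE 0.0273, edgeR adjusted p = 5.71e-24). The icaritin libraries of SNK-10, at 293 to 310 FPKM, lay below the DMSO libraries of SNT-16, at 366 to 377 FPKM.

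MARS1 lay at 78.2, 76.7 and 78.3 FPKM in SNT-8 with DMSO and at 126, 123 and 133 FPKM with icaritin, and in SNK-10 it went from 72.7, 70.5 and 68.1 to 127, 129 and 125 FPKM. In SNT-16 it went from 83.4, 80.7 and 80.8 to 123, 129 and 123 FPKM, and the icaritin libraries of the 3 lines overlapped. MARS1 and YARS1, the enzymes for methionine and tyrosine, both had a mean log2 fold change of 0.71, and IARS1, for isoleucine, had 0.63 (SE 0.0240, edgeR adjusted p = 4.63e-24). EPRS1, a fused enzyme for glutamate and proline, rose by 0.50, NARS1, for asparagine, by 0.35 and TARS1, for threonine, by 0.33 on the log2 scale. LARS1, for leucine, and QARS1, for glutamine, rose least, by 0.16 (SE 0.0265) and 0.12 (SE 0.0276). QARS1 did not pass in SNT-16 (0.04, adjusted p = 0.575), and its call in SNT-8 was lost without SNT-8 DMSO replicate 1 (adjusted p = 0.0810). The call of LARS1 in SNK-10 was lost without SNK-10 DMSO replicate 3 (adjusted p = 0.0757) or icaritin replicate 3 (adjusted p = 0.0880). MARS1 overlaps DDIT3 and ARHGAP9 in the annotation and YARS1 overlaps S100PBP; the mean level was 299 CPM for MARS1 against 52.3 for DDIT3 and 28 for ARHGAP9, and 284 CPM for YARS1 against 60.7 for S100PBP. DDIT3 and S100PBP rose as well (1.95 and 0.52), ARHGAP9 fell (-0.33), and the split of reads between such pairs is uncertain because no strand setting is stated. CPM is the count scaled to library size.

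FARSA, VARS1, RARS1, FARSB, HARS1, KARS1 and TARS3 fell on the mean of the 3 lines. FARSA encodes the catalytic subunit of the cytosolic phenylalanine enzyme and lay at 82.1, 82.2 and 81.4 FPKM in SNT-8 DMSO libraries and at 45.3, 42.6 and 48.1 FPKM with icaritin. In SNK-10 it went from 86.1, 79.8 and 84.0 to 48.6, 48.6 and 40.3 FPKM, and in SNT-16 from 69.3, 78.5 and 69.8 to 43.0, 41.8 and 39.5 FPKM. No icaritin library reached a DMSO library. The log2 fold changes were -0.90, -0.83 and -0.83, with a mean of -0.86 (SE 0.0334, edgeR adjusted p = 1.20e-23). FARSB, the other subunit of the same enzyme, fell less, with -0.47, -0.39 and -0.26.

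VARS1, the valine enzyme, went from 41.9 ± 2.51 to 28 ± 0.800 FPKM in SNT-8, from 41.6 ± 0.926 to 27.1 ± 3.19 FPKM in SNK-10 and from 43.1 ± 0.456 to 27.6 ± 1.49 FPKM in SNT-16 (SD, n = 3 each), with a mean log2 fold change of -0.63 (SE 0.0322). RARS1, the arginine enzyme, went from 111 ± 0.565 to 73.5 ± 4.08 FPKM in SNT-8, from 64.1 ± 2.27 to 39.8 ± 0.781 FPKM in SNK-10 and from 116 ± 3.82 to 86.7 ± 0.522 FPKM in SNT-16. The DMSO libraries of SNK-10, at 62.7 to 66.7 FPKM, lay below the icaritin libraries of both SNT lines. KARS1, the lysine enzyme of both compartments, fell by 0.29 on the log2 scale (SE 0.0269), from 138 to 159 FPKM over the 9 DMSO libraries to 113 to 136 FPKM over the 9 icaritin libraries; GARS1, which shares that double role, rose. TARS3, a gene closely related to TARS1 and listed at only 4.10 to 7.52 FPKM, fell by 0.20 (SE 0.0587, adjusted p = 0.00268). TARS3 did not pass in SNT-16 (0.02), and its call in SNK-10 was lost without any of SNK-10 DMSO replicate 1 or 2 and icaritin replicate 1 or 3 (adjusted p 0.104 to 0.141). Reads shared between TARS1 and TARS3, or between the related genes HARS1 and HARS2, may have been split by the authors' counting. The extent of such sharing was not measured.

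**Figure D2:**
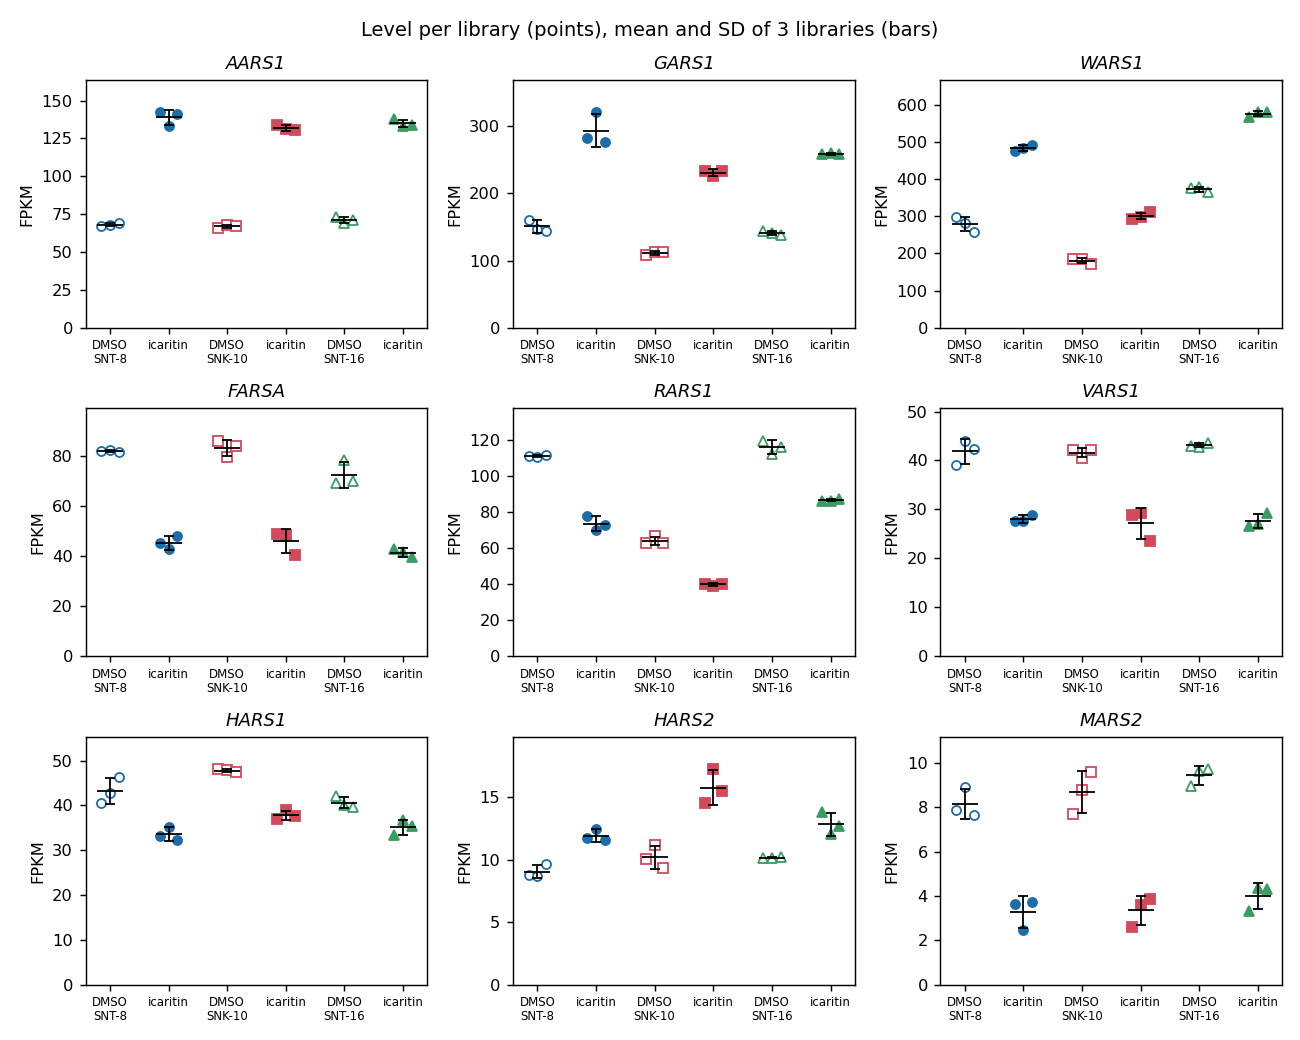
FPKM in every library of 9 synthetase genes, by line and treatment; open symbols are DMSO, filled symbols are icaritin, and the bars give the mean and SD of 3 libraries. AARS1, GARS1 and WARS1 rose, FARSA, RARS1 and VARS1 fell, HARS1 and HARS2 went in opposite directions in each line, and MARS2 fell to at most 4.36 FPKM.

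The genes of the multisynthetase complex moved in both directions. Of its 7 synthetase genes measured here, MARS1, IARS1, EPRS1, LARS1 and QARS1 rose on the mean of the lines and RARS1 and KARS1 fell, where 31.7% of all genes tested rose and 30% fell. Of the other 13 genes with a cytosolic role, 8 rose and 5 fell. The 3 scaffold genes fell on the mean: AIMP2 by 0.46 (SE 0.0368), EEF1E1 by 0.52 (SE 0.0419) and AIMP1 by 0.15 (SE 0.0412, edgeR adjusted p = 0.00147) on the log2 scale. AIMP1 passed in SNT-8 and in neither other line. AIMP2 lay at 50.8 to 56.5 FPKM in SNT-8 DMSO libraries and at 34.2 to 39.6 FPKM with icaritin, and in SNT-16 at 54.1 to 59.5 and 40.5 to 42.2 FPKM; in SNK-10 it lay at 53.4 to 60.3 and 42.0 to 43.8 FPKM. EEF1E1 lay at 64.7 to 74.8 and 37.4 to 47.1 FPKM in SNT-8, at 47.2 to 53.8 and 29.9 to 34.3 FPKM in SNK-10, and at 58.7 to 62.9 and 45.2 to 50.1 FPKM in SNT-16. Its log2 fold changes of -0.72, -0.57 and -0.28 differed between lines (edgeR adjusted p = 0.00542), SNT-16 minus SNT-8 included (0.44, adjusted p = 0.0349). The synthetases also fall into 2 structural classes that share no fold. Of the 9 cytosolic genes of class I, 7 rose and 2 fell, and of the 10 of class II, 5 rose and 5 fell; EPRS1 holds both classes. The share over all genes is the one just given, and the difference between the classes was not tested.

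Among the mitochondrial genes, MARS2, the methionine enzyme, showed the largest change of all 36. It lay at 7.88, 8.92 and 7.65 FPKM in SNT-8 with DMSO and at 3.63, 2.45 and 3.75 FPKM with icaritin. In SNK-10 it went from 7.69, 8.77 and 9.58 to 2.62, 3.59 and 3.86 FPKM, and in SNT-16 from 8.96, 9.64 and 9.73 to 3.32, 4.36 and 4.32 FPKM. The highest icaritin library, at 4.36 FPKM, lay below the lowest DMSO library, at 7.65 FPKM. The log2 fold changes were -1.36 (SE 0.133), -1.33 (SE 0.133) and -1.26 (SE 0.126), with a mean of -1.32 (SE 0.0754, edgeR adjusted p = 2.76e-16). MARS1, for the same amino acid in the cytosol, rose in each line.

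The other falls in the mitochondrial set were smaller, between -0.16 for AARS2 and -0.40 for SARS2 on the mean. SARS2, LARS2, VARS2, YARS2, FARS2, TARS2, IARS2, NARS2 and AARS2 passed downwards on that mean. IARS2, for isoleucine, was the most abundant of them per length and went from 63.3 ± 1.63 to 48.8 ± 1.00 FPKM in SNT-8, from 67.6 ± 1.63 to 56.1 ± 2.76 FPKM in SNK-10 and from 63.6 ± 1.28 to 53.1 ± 1.59 FPKM in SNT-16 (SD, n = 3 each). LARS2, for leucine, went from 16.01, 18.4 and 17.8 to 12.8, 12.2 and 12.4 FPKM in SNT-8 and from 17.1, 16.03 and 17.7 to 12.4, 12.4 and 13.3 FPKM in SNT-16. In SNK-10 it was at 15.4, 14.97 and 15.3 FPKM with DMSO and at 12.4, 14.5 and 14.03 FPKM with icaritin, which did not pass (-0.12, adjusted p = 0.117). FARS2, for phenylalanine, went from 9.27, 8.74 and 11.11 to 7.5, 5.76 and 8.71 FPKM in SNT-8 and from 10.23, 10.20 and 9.77 to 7.05, 8.06 and 6.97 FPKM in SNT-16, while in SNK-10 the DMSO libraries (9.82, 12.77 and 11.69 FPKM) and the icaritin libraries (11.33, 11.75 and 10.42 FPKM) overlapped. Some of the smaller falls lay near the threshold in single lines, and their calls were lost without any 1 of several libraries. NARS2 was lost in SNT-8 without DMSO replicate 3 or icaritin replicate 2 or 3 (adjusted p 0.0588 to 0.0675) and in SNT-16 without DMSO or icaritin replicate 2 (0.0828 to 0.192). YARS2 was lost in SNT-16 without DMSO or icaritin replicate 1 or 3 (0.0704 to 0.131), and TARS2 in SNK-10 without DMSO replicate 2 or 3 or icaritin replicate 3 (0.0931 to 0.171). AARS2 passed in SNT-16 and became a call in SNT-8 without DMSO replicate 2 (0.0472). CARS2, EARS2, PARS2 and RARS2 did not pass on the mean, with log2 fold changes of -0.05, -0.08, 0.02 and -0.06. RARS2 passed in SNT-8 (-0.18), a call lost without DMSO replicate 2 or 3 or icaritin replicate 1 or 2 (adjusted p 0.0601 to 0.113). CARS2, at 42.4 to 61.6 FPKM over all libraries, lay in about the range of the cytosolic gene FARSB (40.9 to 60.1 FPKM). EARS2 passed on the mean without SNT-8 DMSO replicate 1 (adjusted p = 0.0453).

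HARS2 and WARS2, the mitochondrial enzymes for histidine and tryptophan, were the genes of their set that rose. HARS2 went from 8.81, 8.68 and 9.66 to 11.7, 12.5 and 11.6 FPKM in SNT-8, from 10.02, 11.17 and 9.34 to 14.5, 17.3 and 15.5 FPKM in SNK-10 and from 10.11, 10.12 and 10.19 to 13.84, 12.02 and 12.69 FPKM in SNT-16. In each line the icaritin libraries lay above the DMSO libraries. The mean log2 fold change was 0.44 (SE 0.0485, edgeR adjusted p = 2.11e-10). WARS2 went from 5.68, 4.98 and 5.34 to 6.51, 7.02 and 7.67 FPKM in SNK-10 and from 7.25, 7.13 and 8.39 to 9.07, 9.34 and 9.05 FPKM in SNT-16, while in SNT-8 the DMSO libraries (7.45, 7.34 and 6.71 FPKM) touched the icaritin libraries (7.45, 7.54 and 9.36 FPKM). WARS2 rose by 0.27 on the mean (SE 0.0575, adjusted p = 7.75e-05), with 0.13 in SNT-8, which did not pass, 0.44 in SNK-10 and 0.25 in SNT-16. In SNT-16 the call was lost without DMSO replicate 1 or 2 or any icaritin replicate (adjusted p 0.0516 to 0.144). WARS2 overlaps the antisense gene WARS2-AS1, which rose by 0.23 at a similar mean level (26.7 against 20.9 CPM), so reads of these 2 genes may not be separated. The same limit holds for FARS2, which overlaps LYRM4 (18 against 25.7 CPM, LYRM4 at -0.03 and not passing), and for EARS2, which overlaps GGA2 (37.1 against 42 CPM, GGA2 at 0.08 and not passing).

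HARS1 and HARS2 lie head to head on chromosome 5 and are transcribed away from each other, with 84 bases from start to start (chr5:140691371-140691454, GRCh38.p14). The stretch is printed because the genes on its 2 sides moved in opposite directions. It is given on the plus strand, which is that of HARS2, with matches to the ETS factor core CCGGAAG on either strand in capitals.
HARS1/HARS2: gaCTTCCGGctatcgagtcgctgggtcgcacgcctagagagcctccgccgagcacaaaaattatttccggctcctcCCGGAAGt
The core matched 2 times in the stretch. It stood in the promoters of 16 of the 30 matched synthetase genes, 7 of the 13 that rose and 6 of the 13 that fell. The share was 12.2% counted over all genes and 10.3% over all promoters. HARS1 fell from 43.2 ± 2.96 to 33.5 ± 1.53 FPKM in SNT-8, from 47.8 ± 0.345 to 37.8 ± 1.03 FPKM in SNK-10 and from 40.6 ± 1.33 to 35.2 ± 1.68 FPKM in SNT-16 (SD, n = 3 each). Its mean log2 fold change was -0.32 (SE 0.0331, edgeR adjusted p = 4.03e-11), against 0.44 for HARS2.

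For 14 amino acids a cytosolic gene was paired with a mitochondrial one, and the ratio of their FPKM was compared within each library. FARSA stood for the cytosolic phenylalanine enzyme. EPRS1, which serves glutamate and proline, was not paired with EARS2 or PARS2, so these 2 amino acids are outside the counts below. The ratio rose after icaritin for 10 pairs and fell for 4 (exact permutation test of labels within lines, 8000 reassignments, two-sided, Benjamini-Hochberg over the 14 pairs). In 13 pairs the permutation p was 0.00025, the smallest this design can give (adjusted 0.000269), and for FARSA/FARS2 it was 0.0005. The sign was the same in each line for each pair. Ratios of other gene pairs were not tested, so the share of arbitrary pairs that would pass is not known. Of all single genes tested, 61.7% passed on the mean of the lines (edgeR). The count of pairs is therefore not shown to be particular to these partners. The MARS1/MARS2 ratio moved most, lying at 8.60 to 10.2 with DMSO against 34.6 to 50 with icaritin in SNT-8. The ranges were 7.11 to 9.45 against 32.4 to 48.6 in SNK-10 and 8.31 to 9.31 against 28.4 to 37.1 in SNT-16. On the log2(FPKM + 0.1) scale this was a mean change of 2.02. The ratios of SARS1/SARS2, AARS1/AARS2, CARS1/CARS2, YARS1/YARS2 and IARS1/IARS2 rose by 1.20, 1.12, 1.02, 1.02 and 0.95 on that scale.

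CARS1/CARS2 was the pair whose order turned over. The mitochondrial gene was the higher in all 9 DMSO libraries, with ratios of 0.493 to 0.816, and the cytosolic gene was the higher in all 9 icaritin libraries, with ratios of 1.25 to 1.44. The ratios of TARS1/TARS2, NARS1/NARS2, LARS1/LARS2 and WARS1/WARS2 rose by 0.63, 0.59, 0.52 and 0.44. The 4 ratios that fell were HARS1/HARS2 (-0.76), FARSA/FARS2 (-0.55), RARS1/RARS2 (-0.53) and VARS1/VARS2 (-0.30). Summed over genes, the 20 with a cytosolic role held 1499 to 1880 FPKM in DMSO libraries and 2036 to 2569 FPKM in icaritin libraries, and the 16 mitochondrial genes held 280 to 307 and 244 to 268 FPKM.

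**Figure D3:**
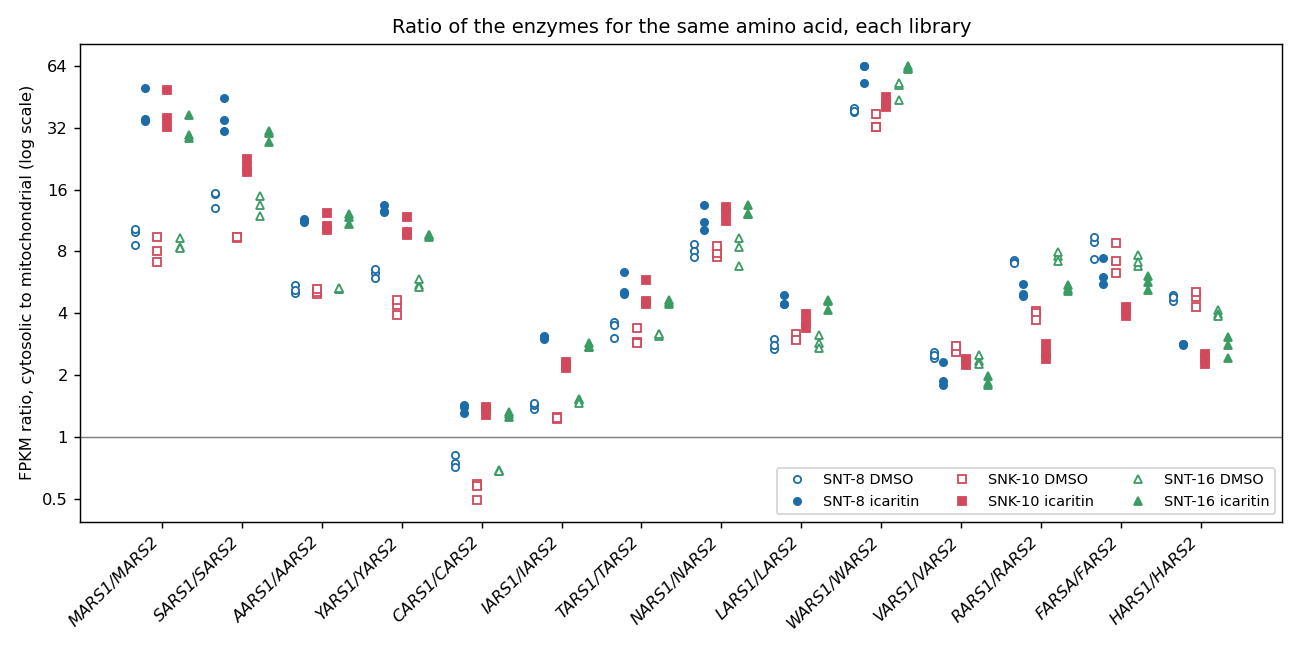
Ratio of the FPKM of the cytosolic gene to that of its mitochondrial partner in every library, on a log scale; open symbols are DMSO, filled symbols are icaritin, and the grey line marks equal levels. MARS1/MARS2 shows the widest gap between treatments, and CARS1/CARS2 crosses the line of equal levels in each cell line.

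The response differed between the lines for 8 of the 36 genes, against 14.3% of all genes tested (edgeR test over the 3 within-line contrasts). CARS1, YARS1, MARS1 and TARS1 rose more in SNK-10 than in either SNT line. Over the 36 genes 6 rose more and 0 less in SNK-10 than in SNT-8 (6.69% and 4.08% of all genes), and 7 more and 1 less than in SNT-16 (6.74% and 5.77%), where more also covers a smaller fall. The difference of log2 fold changes, SNK-10 minus SNT-8 and SNK-10 minus SNT-16, was 0.40 (SE 0.0819) and 0.42 (SE 0.0825) for CARS1, 0.31 and 0.40 for YARS1, 0.22 and 0.29 for MARS1, and 0.28 and 0.26 for TARS1. The adjusted p of the test over lines was 0.000301, 0.000179, 0.00162 and 0.00499 for these 4 genes. YARS1 lay at 61.5, 62.0 and 58.5 FPKM in SNK-10 with DMSO and at 118, 108 and 117 FPKM with icaritin, against 73.5, 68.4 and 70.2 and then 103, 108 and 104 FPKM in SNT-16. Its SNK-10 libraries lay below those of SNT-16 with DMSO, and level with or above them with icaritin. TARS1 went from 87.0, 87.0 and 85.2 to 119, 117 and 126 FPKM in SNK-10 and from 119, 118 and 109 to 136, 149 and 136 FPKM in SNT-8.

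LARS2 fell in the SNT lines and did not pass in SNK-10, with a difference of 0.40 from SNT-8 and 0.31 from SNT-16 (adjusted p of the test over lines 0.00420). FARS2, whose reads may be shared with LYRM4, was at -0.46 in SNT-8, -0.47 in SNT-16 and -0.00 in SNK-10 (adjusted p = 0.0486). GARS1 differed with an adjusted p of 0.0396 and RARS1 with 0.0342, RARS1 being at -0.65 in SNT-8 and SNK-10 and at -0.44 in SNT-16. For RARS1 the difference between SNK-10 and SNT-16 passed (-0.21, adjusted p = 0.0386), and that between SNT-16 and SNT-8 did not (0.20, adjusted p = 0.147). The calls of these last 3 were lost when single libraries were left out: for FARS2 without any of 13 libraries (adjusted p 0.0522 to 0.183), for GARS1 without any of 11 (0.0516 to 0.114), and for RARS1 without any of 9 (0.0521 to 0.122). For GARS1 these were all 6 libraries of SNT-16 and those of SNK-10 other than icaritin replicate 2. For RARS1 they were DMSO replicates 1 and 3 of SNT-8, DMSO replicate 2 and icaritin replicates 1 and 2 of SNK-10, and replicates 2 and 3 of both treatments of SNT-16. For FARS2 the call stood without any 1 of 5 libraries. In SNT-8 these were DMSO replicate 2 and icaritin replicates 2 and 3. The others were DMSO replicate 2 of SNK-10 and icaritin replicate 2 of SNT-16. Calls were also gained. TARS2 (edgeR adjusted p = 0.0559 with all libraries) passed without any 1 of 4 libraries (0.0170 to 0.0397) and under 2 of 8 other settings. HARS2 passed without either of 2 libraries (0.0361 and 0.0372), and FARSB (0.0388) and NARS1 (0.0307) without 1 each. None of the 36 genes passed for a difference in response between SNT-8 and SNT-16, where 0.438% of all genes did, 0.264% upwards and 0.174% downwards in SNT-16 minus SNT-8.

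**Figure D4:**
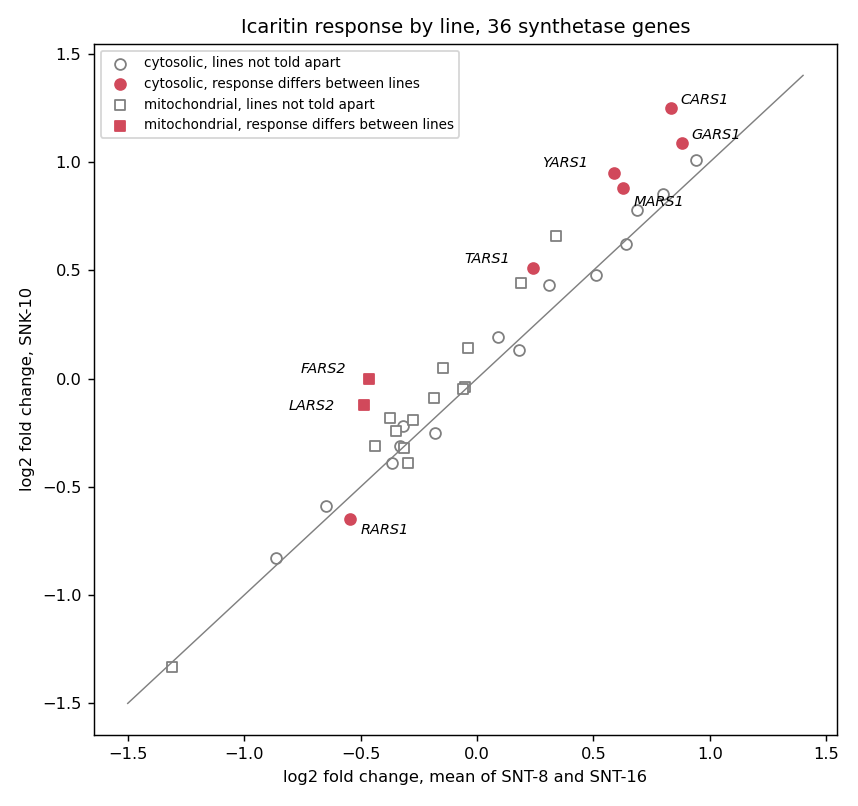
Log2 fold change after icaritin in SNK-10 against the mean of SNT-8 and SNT-16 for the 36 genes; circles are cytosolic, squares mitochondrial, filled symbols those whose response differed between lines, and the diagonal marks equal responses. CARS1, YARS1, MARS1, TARS1 and GARS1 lie above the diagonal, and FARS2 and LARS2 lie above it among the falls.

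With DMSO, SNK-10 differed from the mean of the SNT lines for 24 of the 36 genes, with 10 higher and 14 lower; 61.4% of all genes tested differed, 31.8% higher and 29.6% lower. Among the 16 mitochondrial genes 5 were higher, which became 3 without SNK-10 DMSO replicate 2 or 3. The largest differences were lower levels in SNK-10 of WARS1 (-0.82, SE 0.0427), RARS1 (-0.79, SE 0.0418) and CARS1 (-0.68, SE 0.0545) on the log2 scale. GARS1 and TARS1 were lower by 0.36 each, SARS1 by 0.23 and YARS1 by 0.22. The higher levels in SNK-10 were smaller, up to 0.40 for TARS3 and 0.34 for SARS2. AARS1, at -0.03, did not pass. The starting level and the response of a line share its DMSO libraries, so no relation between them is given.

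ATF4 RNA rose in each line, from 236 to 251 FPKM up to 358 to 382 in SNT-8, from 169 to 181 up to 342 to 371 in SNK-10 and from 221 to 240 up to 370 to 394 in SNT-16. The log2 fold change was 0.55 in SNT-8, 1.03 in SNK-10 and 0.71 in SNT-16, and it differed between lines (edgeR adjusted p = 1.64e-06). Of 18 genes listed as ATF4 and its textbook targets, 15 could be tested. Of these, 12 rose and 0 fell in SNT-8, 15 rose in SNK-10, and 12 rose and 0 fell in SNT-16, where 24.0%, 24.4% and 21.2% of all genes tested rose in the 3 lines in that order. SESN2 was at 1.7, TRIB3 at 1.62, DDIT3 at 1.95 and MTHFD2 at 1.18 on the mean of the lines. This list is textbook knowledge and some of the synthetases above belong to the same set. ASNS, the asparagine synthetase gene, passed in SNK-10 (1.23, SE 0.0696), from 23.8 to 24.9 FPKM up to 55.0 to 57.4; in the SNT lines it lay at 0.42 to 1.02 FPKM in all 12 libraries and did not pass (-0.13 and -0.16); the test over lines gave an adjusted p of 4.2e-05.

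Other genes of the tRNA pathway were counted on the mean of the lines. XPOT, the exporter of tRNA from the nucleus, was the only riser among 10 accessory and editing genes, with a mean log2 fold change of 0.73 (SE 0.0270); 6 of the 10 fell and 3 did not pass. RNA polymerase III is the polymerase that transcribes tRNA genes. Of 20 genes listed for it, its factors and its regulators, 13 fell, 3 rose and 4 did not pass on the mean. POLR3G (-1.17, SE 0.0429) and POLR3E (-0.85, SE 0.0385) led the falls. Of 14 genes that mature mitochondrial tRNA, 12 fell, with TRMT10C at -1.07, TRMT5 at -0.93 and PUS1 at -0.83, and MTO1 rose (0.36). Of 10 mitochondrial translation factors, 7 fell, 0 rose and 3 did not pass, with GFM1 at -0.31 and TUFM at -0.17. Of 9 genes listed for cytosolic elongation and termination, which include the kinase gene EEF2K, 4 rose and 4 fell. EEF2 was at 0.32, and EIF5A and GSPT1 were at -0.64 and -0.65. EEF2K, at -0.09, was among the falls. These counts stand beside 31.7% of all genes upwards and 30% downwards.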

How the data were processed

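RNA-seq libraries of 3 NK/T cell lymphoma lines were analysed, 3 per group, grouped by the line, treatment, time and replicate number in the titles. The authors deposited expected counts and FPKM per gene, per the file headers; Bowtie2 and HISAT are named in the submitters' processing notes, with no counting tool, version or build (not given in the sources used here). Genes without fragments are not listed and were taken as 0. Rounded expected counts were fitted with edgeR 4.0.16 (R 4.3.3): filterByExpr (minimum count 10, minimum total 15), TMM scaling, a robust quasi-likelihood fit with 1 coefficient per group and 12 residual degrees of freedom, and Benjamini-Hochberg adjustment over 14396 genes at 0.05. The SE was taken as the size of the log2 fold change over the root of F. The procedure was tested on simulated data. Levels are the authors' FPKM, so a ratio of printed levels can differ slightly from the fold change of the counts. Gene IDs were named through RefSeq (GRCh38.p14), 21559 by ID and 24 by transcript, with 79 unmatched; the coordinates printed are those of the RefSeq promoters. Pairs were tested on log2(FPKM + 0.1). Replicates differed beyond sampling noise in every pair (chi-square per gene 1.37 or more). The largest values were 5.96 and 8.18, for SNT-8 icaritin replicate 2 against replicates 1 and 3. The genes and lists were chosen with earlier results of these data known. All 36 genes are accounted for; values per library are given for those with the largest mean responses, those whose response differs between lines and those that go against their set, and up to 4 genes with the smallest p, or those needed to describe a mixed list, are named from other lists. Alternatives tried were other scalings, DESeq2 1.42.0, limma 3.58.1 on FPKM, no filter, each line alone, a replicate block, no mitochondrial rRNA and leaving out each library.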

Additional observations from a re-analysis of the deposited data

Results flagged for a closer look

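The icaritin response of 8 synthetase genes differed between the 3 lines by the edgeR test over the within-line contrasts. The adjusted p was 0.000301 for CARS1, 0.000179 for YARS1, 0.00162 for MARS1, 0.00499 for TARS1, 0.00420 for LARS2, 0.0342 for RARS1, 0.0396 for GARS1 and 0.0486 for FARS2. The calls of CARS1, YARS1, MARS1 and TARS1 held under every alternative run, and those of the other 4 were lost under some.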

How the results depend on the processing

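All 32 calls on the mean of the lines and all 14 pair ratios held under every alternative that gave a value. Of 89 calls in single lines 80 held under all of them, and of 8 differences between lines 4 did. Replicate numbers did not pair the libraries (correlations of same-numbered deviations from -0.058 to 0.055), so the replicate block is given here only; the block was not run for the comparison of DMSO levels between lines, and fitting each line alone gives no mean or difference between lines.

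The 2 mitochondrial genes higher in SNT-16 became 1 with DESeq2, with no filter and with the replicate block, and 1 to 2 without single libraries. The 5 higher in SNK-10 with DMSO became 3 with upper-quartile scaling and with limma at either pseudocount, and 3 to 5 without single libraries. The 2 whose response differed between lines became 1 with upper-quartile scaling, DESeq2 and limma on log2(FPKM + 1), 0 with limma on log2(FPKM + 0.1), and 1 to 3 without single libraries. The test over lines was lost for GARS1 with the replicate block (adjusted p = 0.0609) and limma (0.17 and 0.178), for RARS1 with the block (0.0754) and no filter (0.0913), for FARS2 with upper-quartile scaling, DESeq2 and limma (0.0712 to 0.19), and for LARS2 with limma on log2(FPKM + 0.1) (0.0554). The cause was not tested.

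Signs that turned belonged to values that passed no test. With upper-quartile scaling and limma (log2(FPKM + 0.1), then log2(FPKM + 1)), SNK-10 minus the SNT lines with DMSO was -0.03, -0.03 and -0.03 for VARS1 (0.00 as reported), -0.02, -0.02 and -0.02 for AARS2 (0.01) and -0.01, -0.02 and -0.02 for MARS2 (0.02), and the SNT-8 response was 0.01, 0.03 and 0.03 for CARS2 (-0.02) and 0.01, 0.02 and 0.02 for PARS2 (-0.02). TARS3 in SNT-16 was -0.0 with no filter, and FARS2 in SNK-10 was 0.01 with DESeq2 and its size factors and 0.0 with no filter and with the replicate block. Without single libraries the ranges were -0.08 to 0.07 for TARS3 in SNT-16, -0.02 to 0.03 for VARS1, -0.0 to 0.03 for AARS2 and -0.06 to 0.09 for MARS2 with DMSO, -0.05 to 0.02 for CARS2 and -0.16 to 0.06 for PARS2 in SNT-8, -0.03 to 0.06 for PARS2 on the mean, and -0.1 to 0.08 for FARS2 in SNK-10.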
